A study of Mus musculus with 90 samples.

Results

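The adipokines and the lipid storage genes of the fat cell were followed through 15 tissues of the mouse at 2 phases of the estrous cycle. The 10 genes were taken by their Entrez identifiers, and each had 1 row among the 20414 genes of the expression table. They were Lep (Entrez 16846), Adipoq (11450), Retn (57264), Cfd (11537), Fabp4 (11770), Plin1 (103968), Lipe (16890), Pnpla2 (66853), Slc2a4 (20528) and Lpl (16956). The samples came from female C57BL/6 mice labelled as 10 weeks old, with no treatment and no genetic change named. The study's methods name the substrain C57BL/6J and give a younger age than the labels. Vaginal smears stained with methylene blue sorted the mice into an estrus group and a diestrus group. The study's methods add that the cycle was followed daily and that serum estrogen and progesterone were measured as an aid. Each tissue had 3 libraries per phase, 90 in all. The tissues were white adipose tissue (WAT), brown adipose tissue (BAT), aorta, vein, heart, muscle, kidney, stomach, liver, cerebrum, ovary, duodenum, uterus, hypothalamus and spleen. The labels name neither the WAT depot nor the vein, and they do not tie a replicate number to a mouse, so the p-values below measure the spread between these libraries. According to the study's methods the mice of a phase gave all of these tissues. The unit throughout is FPKM, fragments scaled by transcript length and by library total, so levels of different genes are per length.

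White fat cells store triglyceride in 1 large lipid droplet, whereas brown fat cells keep many small droplets and burn the fat to make heat. The stored fat is loaded by Lpl, a lipase on the capillary wall that frees fatty acids from lipoproteins, and the acids are carried in the cell by Fabp4. Plin1 coats the droplet, and Pnpla2 (ATGL) and Lipe (hormone-sensitive lipase) take triglyceride apart in turn. Slc2a4 (GLUT4) is the insulin-responsive glucose transporter of fat and muscle. Fat cells also secrete hormones and other proteins: leptin (Lep), which signals energy stores to the brain, adiponectin (Adipoq), an insulin-sensitising hormone, resistin (Retn), and adipsin (Cfd), a protease of the alternative complement pathway.

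Promoter windows, 250 bases before to 50 bases after the transcription start, were at hand for 7 of the 10 genes (RefSeq, build GRCm38.p6). The 3 printed here are those that held a match to a searched motif, and they belong to Lep, Adipoq and Plin1. Capitals mark matches, on either strand, to the letters searched, which were AGGTCA alone and as a direct repeat with 1 base between (DR1), TTGCGCAA, TTNNGCAA, TATAAA and CCAAT.
Lep, chr6:29059971-29060270, plus strand: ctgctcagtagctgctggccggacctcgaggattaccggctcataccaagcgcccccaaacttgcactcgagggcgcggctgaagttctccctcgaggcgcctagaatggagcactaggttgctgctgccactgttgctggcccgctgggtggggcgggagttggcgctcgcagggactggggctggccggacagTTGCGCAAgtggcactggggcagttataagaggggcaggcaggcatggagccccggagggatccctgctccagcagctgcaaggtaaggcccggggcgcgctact
Adipoq, chr16:23146286-23146585, plus strand: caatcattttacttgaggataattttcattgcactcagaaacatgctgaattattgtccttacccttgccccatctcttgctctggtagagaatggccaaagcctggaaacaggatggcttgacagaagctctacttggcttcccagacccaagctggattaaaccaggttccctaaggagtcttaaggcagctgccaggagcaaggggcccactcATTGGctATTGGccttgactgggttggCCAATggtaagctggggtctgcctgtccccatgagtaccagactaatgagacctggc
Plin1, chr7:79732727-79733026, minus strand: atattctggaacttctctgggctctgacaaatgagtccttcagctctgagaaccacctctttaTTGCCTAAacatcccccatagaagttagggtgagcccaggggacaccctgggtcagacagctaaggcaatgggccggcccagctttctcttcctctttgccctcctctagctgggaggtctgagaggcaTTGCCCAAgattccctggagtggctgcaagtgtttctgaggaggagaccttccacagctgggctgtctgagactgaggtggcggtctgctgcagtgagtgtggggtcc
TTGCGCAA, a palindromic C/EBP-type sequence, stood in the Lep window from 55 to 48 bases before the start (positions -55 to -48), and 0.183% of 32851 promoter windows of the same length held it. Every TTGCGCAA is also a TTNNGCAA, which 10.8% of all windows held. The Plin1 window had TTNNGCAA on the opposite strand at positions -187 to -180 and at -58 to -51. The Adipoq window had CCAAT at positions -34 to -30, -27 to -23 and -7 to -3, the first 2 of them on the opposite strand, and 37.4% of all windows held that sequence. The letters AGGTCA (16.3% of all windows), DR1 (0.0396%), which contains AGGTCA, and TATAAA (13.6%) were not found in the windows of the 7 members, and the windows of Lipe, Pnpla2, Retn and Cfd held none of the motifs.

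The table gives no read counts. BAT estrus replicate 3 stood apart with 12048 genes at 0, against 2404 to 4820 in the other 89 libraries, and the rounding steps of its values put it near 74600 reads under 5 of 6 ways of searching them (20000 under the other, the lowest value searched). With 74600 reads and the longest transcript of each gene, Lep rested on about 3.0 reads and Retn on about 7.7 reads in that library. With 20000 reads or shorter transcripts these numbers would be lower. For the other 89 libraries the 6 ways gave a median of 15200000 to 15700000 reads, but single libraries could not be settled, since for 29 of them the answers differed by over 1.5 times. The labelled fat depots were checked by Ucp1, the heat-producing protein of brown fat, which was at 3492 to 5574 FPKM in BAT and at 0.66 to 32.8 FPKM in WAT. For the vessels, 7 smooth muscle markers summed to 1796 to 16265 FPKM in aorta and to 1550 to 4697 FPKM in vein. These sums overlapped, and WAT estrus replicate 1 reached 2824 FPKM, so they do not identify a vessel. Other tissue was present in the vessels and in BAT. The 7 cardiomyocyte markers summed to 343 to 4970 FPKM in aorta, and 5 neuron markers to 490 to 1058 FPKM in vein (0 to 5.46 FPKM in BAT). In BAT 7 skeletal muscle markers summed to 33.0 to 5997 FPKM. In these bulk samples, fewer fat cells and less RNA per fat cell cannot be told apart.

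The members were highest in WAT in 8 cases and in BAT in 2 (Pnpla2 and Slc2a4). For 6 of the 10 (Adipoq, Retn, Cfd, Fabp4, Plin1 and Lipe), every one of the 24 libraries of WAT, BAT, aorta and vein lay above every one of the 66 libraries of the other 11 tissues. Aorta and vein, which are vessels, overlapped BAT in 8 and in 6 of the 10 members, respectively. The other 4 members had at least 1 library of the 24 inside the range of the other tissues. Without aorta estrus replicate 1 the count was 7 of 10, with Pnpla2 added.

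**Figure D1:**
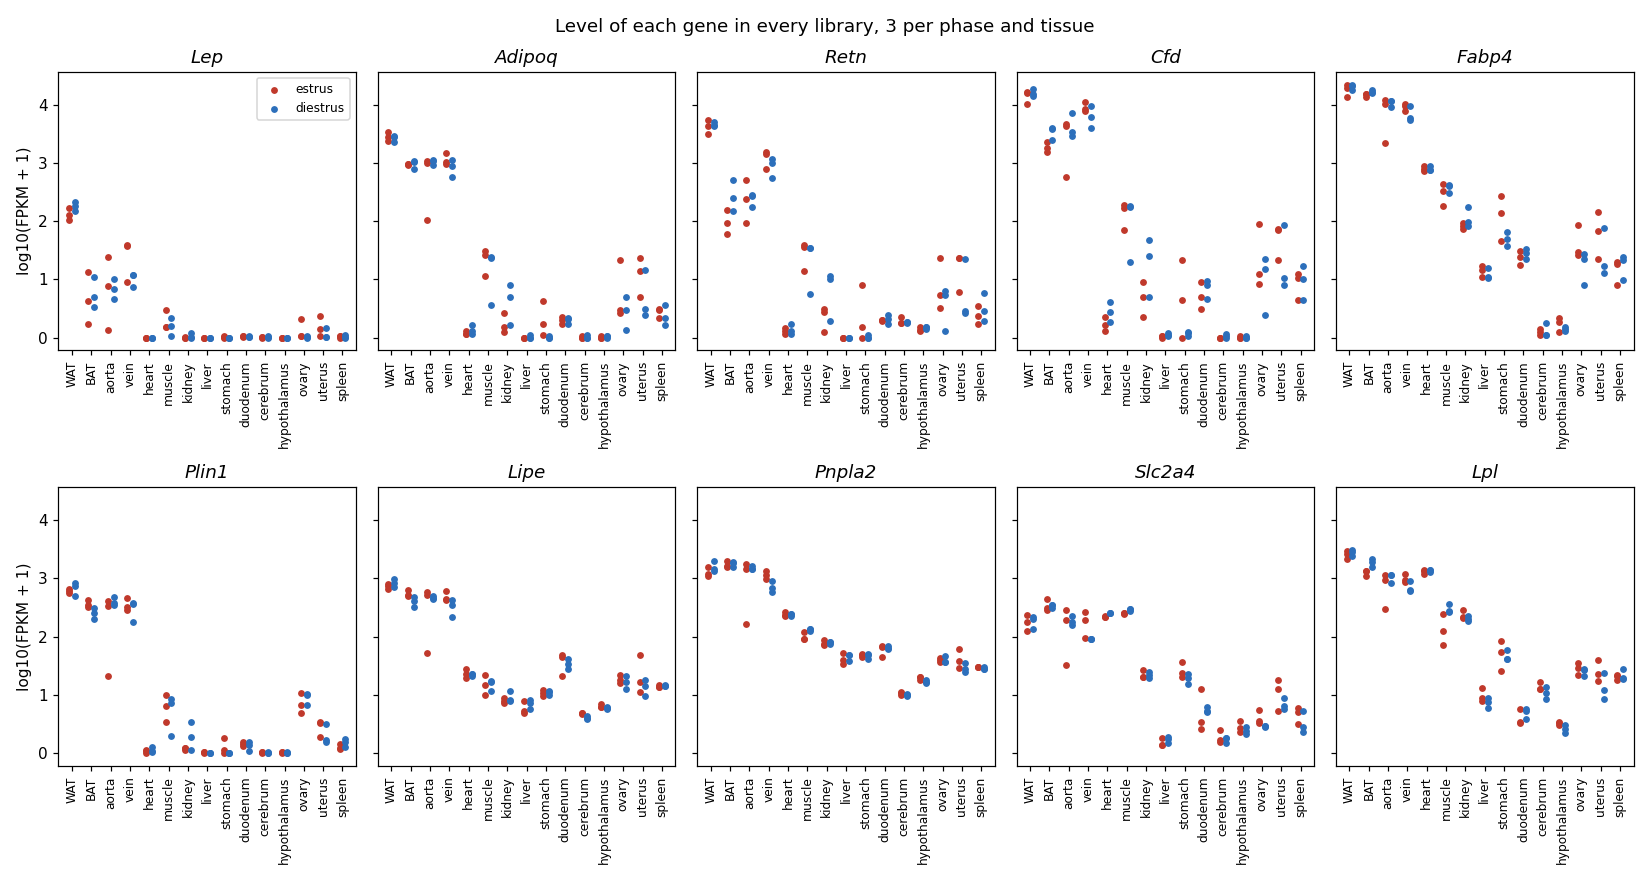
Level of each of the 10 genes in every library, as log10(FPKM + 1), by tissue, with estrus in red and diestrus in blue. WAT, BAT, aorta and vein stand above the other tissues for Adipoq, Retn, Cfd and Plin1, while Lep in BAT and aorta overlaps muscle. Lpl, Slc2a4 and Pnpla2 are also high in heart and muscle.

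Leptin was the most restricted of the 10. In WAT, Lep was at 104, 127 and 168 FPKM in the estrus libraries and 211, 147 and 181 FPKM in the diestrus libraries. In BAT it was at 0.7, 3.32 and 12.3 FPKM in the estrus libraries and 4.05, 9.91 and 2.38 FPKM in the diestrus libraries. Every WAT library was above 100 FPKM and no library of another tissue reached 40 FPKM. In vein, Lep was at 7.9, 36.5 and 37.4 FPKM in the estrus libraries and 10.8, 6.34 and 11.1 FPKM in the diestrus libraries. Aorta had 0.38, 6.82 and 23.7 FPKM in the estrus libraries and 9.16, 5.9 and 3.57 FPKM in the diestrus libraries. The ranges of vein, aorta and BAT overlapped, so their order was not settled. Muscle, the next tissue, had 0.07 to 1.99 FPKM, and Lep was listed at 0 in every library of heart, hypothalamus and liver.

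Adiponectin had the same leading tissue but was also high in BAT, aorta and vein. In WAT, Adipoq was at 2403, 2748 and 3382 FPKM in the estrus libraries and 2792, 2299 and 2870.2 FPKM in the diestrus libraries. BAT had 936, 965 and 974 FPKM in the estrus libraries and 1063, 1055 and 804 FPKM in the diestrus libraries. The 6 BAT libraries lay close together, at 966 ± 94.5 FPKM (SD, n = 6). In vein, Adipoq was at 953, 1476 and 1053 FPKM in the estrus libraries and 899, 564 and 1143 FPKM in the diestrus libraries. Aorta had 104, 1086 and 999.9 FPKM in the estrus libraries and 1148, 934 and 1089 FPKM in the diestrus libraries. Vein, BAT and aorta overlapped, and 5 of the 6 aorta libraries lay at 934 FPKM or above while the first estrus library lay far under them. Muscle followed with 18.9 ± 10.2 FPKM, range 2.6 to 29.5 FPKM.

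Resistin separated WAT and vein from aorta and BAT. In WAT, Retn was at 3123, 5444 and 4306 FPKM in the estrus libraries and 4377, 5024 and 4561 FPKM in the diestrus libraries. Vein followed with 787, 1548 and 1433 FPKM in the estrus libraries and 1014, 561 and 1178 FPKM in the diestrus libraries. The 2 ranges did not overlap, and vein was also above every aorta library. In aorta, Retn was at 91.4, 237 and 517 FPKM in the estrus libraries and 283, 176 and 267 FPKM in the diestrus libraries. Its level in BAT was 58.3, 157 and 92.8 FPKM in the estrus libraries and 249.8, 509.6 and 148 FPKM in the diestrus libraries. These last ranges overlapped, and muscle came next with 4.62 to 38.1 FPKM.

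Adipsin was second to Fabp4 among the 10 genes in WAT. In WAT, Cfd was at 10477, 16100.4 and 16548 FPKM in the estrus libraries and 15575, 13940.0 and 18725 FPKM in the diestrus libraries. Vein had 7673, 11345 and 8543 FPKM in the estrus libraries and 9554, 3939 and 6195 FPKM in the diestrus libraries. The highest vein library passed the lowest WAT library, so these neighbours overlapped. In aorta, Cfd was at 585, 4248 and 4678 FPKM in the estrus libraries and 7159.8, 2895 and 3461 FPKM in the diestrus libraries. BAT gave 1532, 2291 and 1818 FPKM in the estrus libraries and 3817, 4008 and 2468 FPKM in the diestrus libraries. Vein, aorta and BAT overlapped in that order, and muscle stood under them with 19.3 to 188 FPKM.

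Fabp4 had the highest level of the 10 genes. In WAT it was at 13392, 22295 and 19099 FPKM in the estrus libraries and 18192, 21418 and 22071 FPKM in the diestrus libraries. In BAT it was at 13394, 15042 and 15571 FPKM in the estrus libraries and 18025, 16249 and 16293 FPKM in the diestrus libraries. WAT and BAT overlapped, and both were above every aorta and vein library. In aorta, Fabp4 was at 2179, 11912 and 10213 FPKM in the estrus libraries and 9042, 11849 and 11457 FPKM in the diestrus libraries. Its level in vein was 9357, 10304 and 7874 FPKM in the estrus libraries and 5467, 5919 and 9666 FPKM in the diestrus libraries. Heart was the highest of the other tissues, at 810.0 ± 67.1 FPKM (SD, n = 6), and it lay above every muscle library (181 to 427 FPKM).

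Plin1, the droplet coat, was highest in WAT at 651, 595 and 562 FPKM in the estrus libraries and 741, 498 and 838 FPKM in the diestrus libraries. Vein gave 285, 451 and 322 FPKM in the estrus libraries and 367, 174 and 380.4 FPKM in the diestrus libraries. Its level in aorta was 19.8, 399 and 333 FPKM in the estrus libraries and 475, 350.0 and 370.3 FPKM in the diestrus libraries. WAT did not overlap vein, and vein, aorta and BAT overlapped each other. In BAT, Plin1 was at 426, 347 and 314 FPKM in the estrus libraries and 248, 310.0 and 196 FPKM in the diestrus libraries. Ovary came next with 3.86 to 9.53 FPKM and muscle with 0.96 to 9.04 FPKM.

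The lipases reached further into lean tissue. In WAT, Lipe was at 642, 811 and 742 FPKM in the estrus libraries and 826, 718 and 975 FPKM in the diestrus libraries. BAT followed with 622, 490.0 and 509 FPKM in the estrus libraries and 412, 468 and 325 FPKM in the diestrus libraries. WAT lay above BAT in every library, whereas BAT, aorta and vein overlapped. In aorta, Lipe was at 51.2, 579 and 511 FPKM in the estrus libraries and 492, 446 and 460.1 FPKM in the diestrus libraries. In vein it was at 422, 614 and 436 FPKM in the estrus libraries and 341, 214 and 430.0 FPKM in the diestrus libraries. Duodenum, the highest of the other tissues, had 20.4 to 46.3 FPKM, and every one of the 90 libraries was above 1 FPKM.

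Pnpla2, which takes the first fatty acid off a triglyceride, was highest in BAT at 1653, 1591 and 1997 FPKM in the estrus libraries and 1905, 1861 and 1583 FPKM in the diestrus libraries. In WAT it was at 1076, 1168 and 1568 FPKM in the estrus libraries and 1454, 1348 and 2000.3 FPKM in the diestrus libraries. BAT, WAT, aorta and vein overlapped in that order. In aorta, Pnpla2 was at 161, 1776 and 1418 FPKM in the estrus libraries and 1422, 1594 and 1437 FPKM in the diestrus libraries. Vein followed with 1133, 1358 and 970.4 FPKM in the estrus libraries and 667, 569.8 and 895 FPKM in the diestrus libraries. In heart it was at 228, 233 and 264 FPKM in the estrus libraries and 224, 239 and 239 FPKM in the diestrus libraries. Heart lay above every muscle library (89 to 134 FPKM).

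Slc2a4 was shared by brown fat and striated muscle. BAT had 312, 284 and 438 FPKM in the estrus libraries and 345, 343 and 307 FPKM in the diestrus libraries. In muscle it was at 243, 254 and 247 FPKM in the estrus libraries and 297, 268 and 294 FPKM in the diestrus libraries. In heart it was at 213, 225 and 218 FPKM in the estrus libraries and 254, 256 and 248 FPKM in the diestrus libraries. Its first 6 tissues each overlapped the next, so BAT, muscle, heart, WAT, aorta and vein had no settled order between neighbours. In WAT, Slc2a4 was at 123, 176 and 235 FPKM in the estrus libraries and 198, 212 and 132 FPKM in the diestrus libraries. In aorta it was at 31.6, 189 and 279 FPKM in the estrus libraries and 175, 224 and 155 FPKM in the diestrus libraries. Vein had 94.2, 259 and 195 FPKM in the estrus libraries and 88.2, 87.9 and 91.4 FPKM in the diestrus libraries. The 3 vein diestrus libraries lay between 87.9 and 91.4 FPKM while the estrus libraries were spread.

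Lpl was high in the fat depots and in heart. In WAT it was at 2133, 2914 and 2632 FPKM in the estrus libraries and 3095, 2851 and 2419 FPKM in the diestrus libraries. Its level in BAT was 1084, 1335 and 1316 FPKM in the estrus libraries and 1939.7, 1545 and 2122 FPKM in the diestrus libraries. In heart it was at 1368, 1333 and 1186 FPKM in the estrus libraries and 1298, 1395 and 1378 FPKM in the diestrus libraries. WAT lay above every BAT library, and BAT and heart overlapped. In aorta, Lpl was at 292, 1133 and 938 FPKM in the estrus libraries and 839.7, 1126 and 1116 FPKM in the diestrus libraries. Its level in vein was 876, 1163 and 944 FPKM in the estrus libraries and 631, 599.8 and 885 FPKM in the diestrus libraries. Muscle (70.5 to 362 FPKM) and kidney (182 to 288 FPKM) overlapped and lay under vein.

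**Figure D2:**
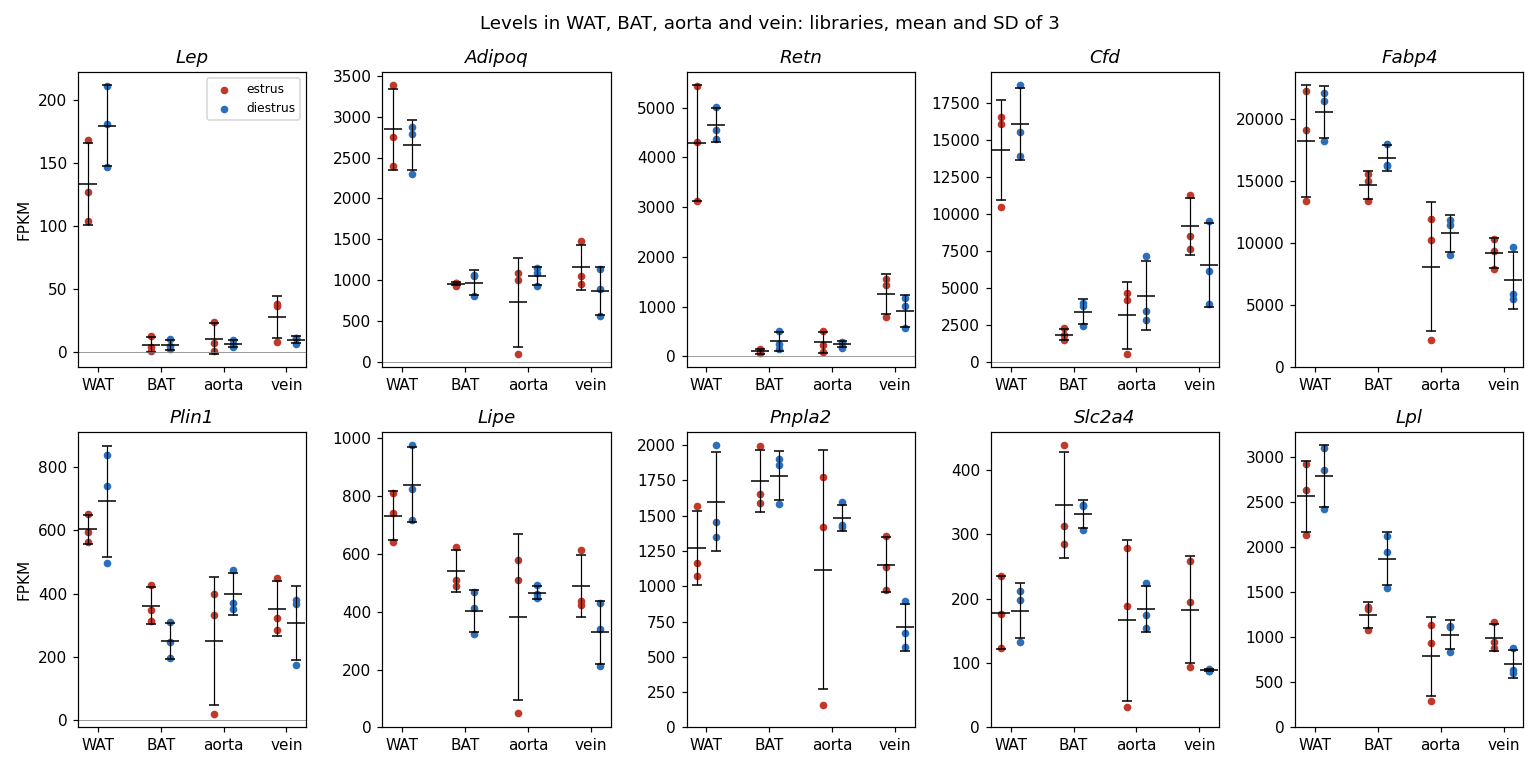
Level in FPKM of the 10 genes in WAT, BAT, aorta and vein, with 1 point per library, a bar at the mean of 3 and whiskers of 1 SD, estrus in red and diestrus in blue. Lep and Retn are far higher in WAT than in BAT, Pnpla2 and Slc2a4 are not, and the first estrus library of aorta lies at the bottom for each gene.

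White and brown fat were compared over 6 libraries each, with phase as a covariate, by limma on log2(FPKM + 1) with Benjamini-Hochberg adjustment over 11783 genes. A call needed a log2 difference of at least 1 either way and an adjusted p of at most 0.05. Of the 10 members, 5 were called, each higher in WAT, against 22.2% of all genes tested called in either direction and 15.1% called higher in WAT. Lep was higher in WAT by 4.90 (SE 0.43, adjusted p = 2.67e-06) and Retn by 4.78 (SE 0.35, adjusted p = 7.11e-07). Cfd was higher by 2.59 (SE 0.21, adjusted p = 1.69e-06) and Adipoq by 1.5 (SE 0.12, adjusted p = 1.35e-06). These are the 4 adipokines among the members, and the droplet coat gene Plin1 was the fifth call at 1.09 (SE 0.18, adjusted p = 0.000424). The Lep and Retn values keep their calls without BAT estrus replicate 3, at 5.25 and 4.70.

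The metabolic members differed less between the fats. Lpl (0.81, adjusted p = 0.000721) and Lipe (0.75, adjusted p = 0.00163) were higher in WAT by limma with their libraries not overlapping, but stayed under the limit on the fold. Slc2a4 went the other way, at -0.94 (SE 0.17, adjusted p = 0.000937), also under the limit. Pnpla2 (-0.32, 95% interval -0.64 to -0.01, adjusted p = 0.0823) and Fabp4 (0.29, 95% interval -0.12 to 0.69, adjusted p = 0.213) missed the threshold by limma. Over the 10 members 8 had libraries that did not overlap between the fats, against 36.3% of all genes, and the members' median difference was 0.95 against 0.30 for all genes tested. When each library was scaled by its median ratio, Slc2a4 was called lower in WAT at -1.04 and Plin1 lost its call at 0.99, so that 4 members were called higher and 1 lower. Plin1 also lost its call without WAT diestrus replicate 3 (0.99) or BAT diestrus replicate 3 (0.98), and Slc2a4 gained a call without WAT estrus replicate 3 (-1.03). That scaling moved the median of all genes by -0.09, and with it 12.8% of all genes were called higher in WAT and 7.98% lower.

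**Figure D3:**
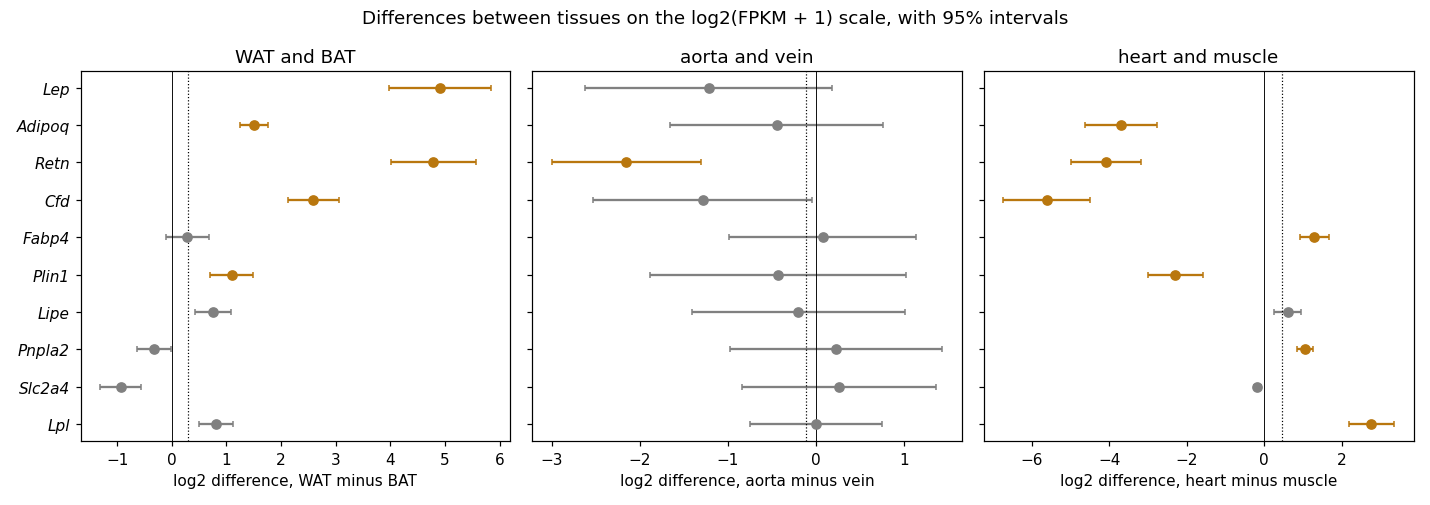
Difference of each gene between the tissues of 3 pairs on the log2(FPKM + 1) scale, with 95% intervals, called genes in orange, a solid line at 0 and a dotted line at the median of all genes tested. Lep and Retn differ most between WAT and BAT, Retn alone is called between aorta and vein, and Lpl and the adipokines lie on opposite sides between heart and muscle.

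The genes around the members were taken from 7 lists of the pathway, 80 genes in the table. Between WAT and BAT, 77 were tested, of which 16 were called higher in WAT and 14 lower by limma, or 39.0% in either direction against 22.2% of all genes (15.1% higher and 7.07% lower). After median-ratio scaling 14 were called higher and 16 lower, or 18.2% and 20.8% against 12.8% and 7.98% of all genes. The largest were Cidea, a droplet protein of brown fat (-6.70), Agt, angiotensinogen (4.96), Gk, glycerol kinase (-4.02), Plin5, a droplet coat of oxidative tissue (-3.92), and Hcar2, a receptor that restrains lipolysis (2.72). In FPKM the list was led in WAT by Cidec (1677 ± 323), Dgat2 (1153 ± 214) and Agpat2 (1057 ± 339) (SD, n = 6), which help to build the triglyceride droplet. In BAT it was led by Gpd1 (3898 ± 665), Cidea (2403 ± 304) and Agpat2 (1617 ± 229) (SD, n = 6). Of 12 listed brown fat markers, 12 were called higher in BAT.

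Aorta and vein were compared in the same way over 13225 genes. Retn alone of the 10 members was called, lower in aorta by limma (-2.15, SE 0.39, adjusted p = 0.00132), against 11.0% of all genes called and 9.12% called lower. It was also the 1 member whose libraries did not overlap (14.6% of all genes). Cfd (-1.28, adjusted p = 0.123) and Lep (-1.22, adjusted p = 0.196) were lower in aorta in the fit without passing the limma test. With the replicate number as a block, Lep was called at the same difference (adjusted p = 0.0468 by limma) and Cfd was not (adjusted p = 0.107). The median over the members was -0.31 against -0.11 for all genes, a median that median-ratio scaling moved by 0.10 without a change of call. Without aorta estrus replicate 1 that median was 0.31 and Retn kept its call at -1.84, while 3 other members passed the adjusted p by limma under the limit on the fold. Pnpla2 (0.81, adjusted p = 0.00195) and Slc2a4 (0.77, adjusted p = 0.0197 by limma) were then higher in aorta, and Cfd was lower (-0.77, adjusted p = 0.0487).

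That library was under every other aorta library in each of the 10 members. Adipoq was at 104 FPKM there against 934 to 1148 FPKM in the other 5, which is 9.93% of their mean. Plin1 was at 5.13% of the mean of the others, Pnpla2 at 10.5%, and Retn, the highest of these shares, at 30.9%. The summed level of 7 smooth muscle markers, each of which had a mean of at least 1 FPKM in aorta, was 16265 FPKM in that library and 1796 to 2638 FPKM in the other aorta libraries. The summed brown fat markers were at 783 FPKM there against 6084 to 9773 FPKM. The part of tissue makeup in the member values was not tested. For the other vessel, vein, the brown fat markers summed to 1147 to 2782 FPKM, and Ucp1 was at 111 to 755 FPKM against 205 to 2896 FPKM in aorta.

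Of the 77 pathway genes tested between aorta and vein, 3 were called higher in aorta and 5 lower by limma. That is 10.4% in either direction, near the 11.0% of all genes (1.84% higher and 9.12% lower). The largest were Sfrp5, a secreted Wnt inhibitor and adipokine (-3.41), Fitm1 (3.03) and Cideb (1.74), both from the lipid droplet list, Fabp5 (-1.37) and Lepr, the leptin receptor (-1.33). Fitm1 had its highest tissue mean in muscle (240 FPKM), against 9.88 FPKM in aorta and 0.158 FPKM in vein. The skeletal muscle markers summed to 50.9 to 442 FPKM in aorta and to 4.01 to 6.37 FPKM in vein. Their part in the Fitm1 difference was not tested.

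Heart and muscle split the members. Of the 10, 9 were tested and 7 were called by limma, 3 higher in heart and 4 lower, against 28.3% of 11452 genes called, 22.7% higher and 5.56% lower. Lpl was higher in heart by 2.76 (SE 0.27, adjusted p = 5.24e-07), Fabp4 by 1.29 (SE 0.17, adjusted p = 1.07e-05) and Pnpla2 by 1.06 (SE 0.10, adjusted p = 2.16e-07). These 3 bring fatty acids into the cell, carry them or free them from its stores. The fat cell products were lower in heart, namely Cfd (-5.62), Retn (-4.08), Adipoq (-3.69) and Plin1 (-2.30), with adjusted p by limma between 2.80e-07 and 2.17e-05. In heart these 4 were at 3.05 FPKM or less in every library, with Adipoq at 0.14 to 0.64 FPKM and Cfd at 0.3 to 3.05 FPKM. The median of all genes was 0.46 higher in heart, and when libraries were scaled by the median ratio Fabp4 (0.81) and Pnpla2 (0.58) lost their calls, which left 1 member called higher and 4 lower. That scaling moved the median of all genes by -0.40, and with it 12% of all genes were called higher in heart and 9.19% lower. Slc2a4 differed by -0.18 (adjusted p = 0.00104 by limma).

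Of the 72 pathway genes tested between heart and muscle, 26 were called higher in heart and 9 lower by limma, or 36.1% and 12.5% against 22.7% and 5.56% of all genes. After median-ratio scaling 17 were called higher and 13 lower, or 23.6% and 18.1% against 12.0% and 9.19% of all genes. Among them were Adrb1, the main adrenergic receptor of the heart (3.55), Cidea (3.55), Gpd1 (-3.27), Cidec (-3.10) and Dgat2 (2.97). In the list of fatty acid uptake and lipase partners, 7 of 9 genes tested were called higher in heart and 0 lower, and 4 were called higher after scaling.

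Estrus was then compared with diestrus within each tissue, 3 libraries against 3. With low-level genes left out at a mean of 1 FPKM, 114 of the 150 combinations of member and tissue were tested. By limma 0 of the 114 were called, against 0.00108% of all tests over the 15 tissues, and the lowest adjusted p was 0.136. The absence of calls does not mean small differences. The fitted values ran from -1.98 in kidney to 1.98 in stomach, and 20 of the 114 were at least 1 either way. An unadjusted p under 0.05 was found in 16 of the 114, against 7.84% of all tests. The libraries of the phases did not overlap in 13 of the 114, or 11.4%, against 15.0% of all tests. Estrus was higher in 6 of the 13 (5.66% of all tests) and lower in 7 (9.31%), and an exact permutation test of 3 against 3 could not go below 0.1.

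In WAT 0 of 10 members separated by phase, against 12.0% of all genes. Lep had the lowest p. It was at 133 ± 32.5 FPKM in estrus and 179 ± 32.1 FPKM in diestrus (SD, n = 3), a log2 difference of -0.44 with a 95% interval from -0.94 to 0.06 (adjusted p = 0.791 by limma). Of the 10 members 9 leaned to diestrus, with a median of -0.17 against 0.06 for all genes, and the first estrus library was the lowest of the 6 in 8 of the 10. Without that library 5 of the 10 leaned to diestrus and the median was 0.0041, and without the second estrus library the median was -0.27. The 7 smooth muscle markers summed to 2824 FPKM in the first estrus library and to 274 and 322 FPKM in the other estrus libraries. In the diestrus libraries they summed to 141 to 201 FPKM. Of 21 marker lists, 2 were higher in each estrus library of WAT, smooth muscle and mammary epithelium, and 0 were lower. The part of these lists in the result was not tested.

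In BAT 5 of 10 members separated by phase, 2 with estrus higher and 3 with estrus lower, against 30.1% of all genes (12.0% higher and 18.1% lower). The droplet genes Plin1 and Lipe were higher in each estrus library. Plin1 was at 362 ± 57.5 FPKM in estrus and 252 ± 56.9 FPKM in diestrus (SD, n = 3), a log2 difference of 0.54 (adjusted p = 0.344 by limma), and Lipe differed by 0.44 (adjusted p = 0.361). Cfd (-0.85, adjusted p = 0.248), Lpl (-0.58, adjusted p = 0.234) and Fabp4 (-0.20, adjusted p = 0.439 by limma) were lower in each estrus library. Retn had the largest fitted difference at -1.48 (95% interval -2.78 to -0.17, adjusted p = 0.34), with overlapping libraries. Without BAT estrus replicate 3 the same 5 members separated, and the adjusted p of Lpl was 0.0783 by limma. The members' median was -0.12 and that of all genes -0.12. The 12 brown fat markers summed to 11916 to 12873 FPKM in the estrus libraries and 13713 to 15579 FPKM in the diestrus libraries, and the skeletal muscle markers to 989 to 1587 FPKM and 33.0 to 5997 FPKM. Of 21 marker lists, 5 were lower in each estrus library of BAT, among them the brown fat markers. Within that list Cidea was lower in each estrus library (1883 to 2430 FPKM against 2496 to 2797 FPKM). Ucp1 was not, at 5574, 4868 and 3492 FPKM in estrus and 4747, 4314 and 3500 FPKM in diestrus. The 7 endothelium markers summed to 186 to 239 FPKM in estrus and 289 to 347 FPKM in diestrus, and the 6 adipocyte progenitor markers to 101 to 134 FPKM and 178 to 291 FPKM. The hepatocyte markers ran from 8.94 to 42.5 FPKM and from 57.9 to 117.1 FPKM, and the neuron markers were at 5.46 FPKM or less. The 5 uterus markers were the 1 list higher in estrus (8.99 to 17.1 FPKM against 5.14 to 7.27 FPKM). The part of these lists in the result was not tested.

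**Figure D4:**
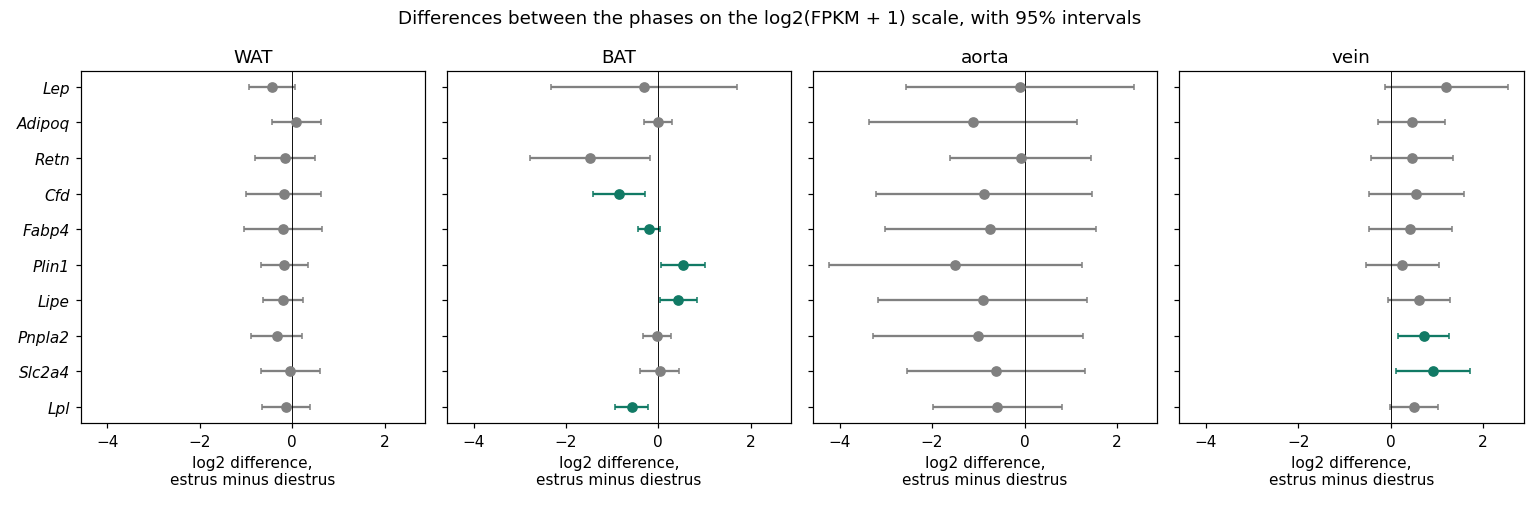
Difference between estrus and diestrus of each gene in WAT, BAT, aorta and vein on the log2(FPKM + 1) scale, with 95% intervals, and in green the genes whose libraries do not overlap between the phases. None of these genes passed the adjusted test, and in aorta each difference lies below 0 and in vein above 0.

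In aorta each of the 10 members was lower in estrus in the fit and 0 of 10 separated (11.9% of all genes), with a median of -0.81 against -0.05 for all genes. Without aorta estrus replicate 1 the median was 0.10 and the members ran from -0.12 to 1.02, so the members' lean to diestrus was absent without that library, while without estrus replicate 2 or 3 the median was -1.25 or -1.31. In vein each of the 10 members was higher in estrus, with a median of 0.53 against -0.10 for all genes, and 2 of 10 separated, both higher in estrus (18.2% of all genes, 5.28% higher). These were Pnpla2, at 1154 ± 195 FPKM in estrus and 711 ± 167 FPKM in diestrus (SD, n = 3; log2 difference 0.71, adjusted p = 0.412 by limma), and Slc2a4 (0.91, adjusted p = 0.412). The second estrus library of vein was the highest of the 6 in 9 members and the second diestrus library was the lowest in 9. Without the latter the median was 0.33 and 9 of the 10 were higher in estrus, with Plin1 at -0.11. The 10 adipocyte markers outside the members summed to 3185 to 7209 FPKM in the estrus libraries of vein and 2396 to 3225 FPKM in the diestrus libraries, and their part in the result was not tested. Of the pathway genes 0 were called between the phases by limma in WAT (75 tested), BAT (72), aorta (78) and vein (75). At an unadjusted p under 0.05 there were 11, 26, 7 and 23, in that order, against 5.97%, 12.8%, 3.11% and 12.1% of all genes.

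In muscle 3 of 9 members separated, each lower in estrus, against 26.2% of all genes (21.9% lower). Lpl was at 144 ± 87.8 FPKM in estrus and 299.6 ± 54.3 FPKM in diestrus (SD, n = 3), a log2 difference of -1.21 (adjusted p = 0.156 by limma). Without muscle estrus replicate 1, whose Lpl of 241 FPKM was nearest the diestrus libraries, Lpl was called at -1.67 (adjusted p = 0.0158 by limma). Leaving out that library widens the gap between the phases, and no other library left out gave a call. Without muscle estrus replicate 3 the lowest difference of any member was -0.79, so Lpl fell under the limit on the fold. Pnpla2 (-0.40, adjusted p = 0.136) and Slc2a4 (-0.20, adjusted p = 0.151 by limma) were the other members that separated. The 6 brown fat markers tested in muscle had a median of -0.57 against -0.08 for all genes. Of the 21 marker lists, 6 were lower in each estrus library of muscle and 2 higher. The endothelium markers summed to 63.6 to 95.1 FPKM in estrus and 102 to 106 FPKM in diestrus, the adipocyte progenitor markers to 64.2 to 96.9 FPKM and 121 to 152 FPKM, and the macrophage markers to 37.1 to 46.5 FPKM and 47.4 to 65.8 FPKM. The other lists that separated were the brown fat markers (1106 to 1459 FPKM and 1540.1 to 1725 FPKM) and 4 lists under 10 FPKM. The brown fat list is not particular to brown fat, since its Cox7a1 (1712 FPKM) and Ppargc1a (27.2 FPKM) had their highest tissue mean in heart. The part of these lists in the result was not tested. In heart 1 of 6 members separated, against 11.7% of all genes (3.84% lower in estrus). It was Slc2a4, at 219 ± 5.72 FPKM in estrus and 253 ± 4.06 FPKM in diestrus (SD, n = 3; log2 difference -0.21, adjusted p = 0.792 by limma). Single members separated in cerebrum, where Lipe was higher in estrus (0.27, adjusted p = 1 by limma, against 7.80% of all genes and 4.92% higher), and in ovary, where Slc2a4 was higher (0.47, adjusted p = 0.838, against 13.7% of all genes and 8.13% higher). In uterus 0 of 9 separated (7.91% of all genes), although each of the 9 leaned to estrus with a median of 0.90 against -0.07. The 10 adipocyte markers outside the members ran from 59.7 to 156 FPKM in the estrus libraries of uterus and from 109.5 to 319 FPKM in the diestrus libraries, and their part in the result was not tested.

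The phase differences were also set against each other between the tissues of a pair, by the interaction of tissue and phase. By limma 0 members were called in the 3 pairs, where 0.102%, 0% and 0.0175% of all genes were called in WAT with BAT, aorta with vein and heart with muscle. At an unadjusted p under 0.05 there were 2 members in the first pair (Lipe and Plin1, 13.2% of all genes), 0 in the second (3.27%) and 2 in the third (Lpl and Pnpla2, 13.8%). Without muscle estrus replicate 1, Lpl was called in the third by limma, and it was not called there with any other library left out.

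Single libraries of lean tissues stood apart in several members, and 3 such libraries, chosen after their values were seen, are given here. In muscle, diestrus replicate 1 had Adipoq at 2.6, Retn at 4.62 and Cfd at 19.3 FPKM, while the other 5 libraries had at least 10.6, 12.8 and 68.8 FPKM. In ovary, estrus replicate 3 had 20.6, 22.6 and 89.5 FPKM and was the highest of the 6 in 8 of 9 members with a mean of at least 1 FPKM. In stomach, estrus replicate 1 had Adipoq at 3.34 and Cfd at 20.9 FPKM against at most 0.72 and 3.47 FPKM in the others. Pnpla2 stayed within the range of the other 5 libraries in each of the 3, at 132 FPKM in the muscle library, 41.5 FPKM in the ovary library and 43.0 FPKM in the stomach library. Slc2a4 and Lpl did not always. Lpl was at 362 FPKM in muscle diestrus replicate 1 against 70.5 to 273 FPKM in the others, so it was highest where the adipokines were lowest. Slc2a4 was at 4.43 FPKM in the ovary library against 1.8 to 2.58 FPKM, and at 35.0 FPKM in the stomach library against 14.2 to 22.7 FPKM. In duodenum Cfd was lowest in estrus replicate 1 (2.12 FPKM), where Adipoq (1.03 FPKM) lay inside its range of 0.7 to 1.25 FPKM.

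**Figure D5:**
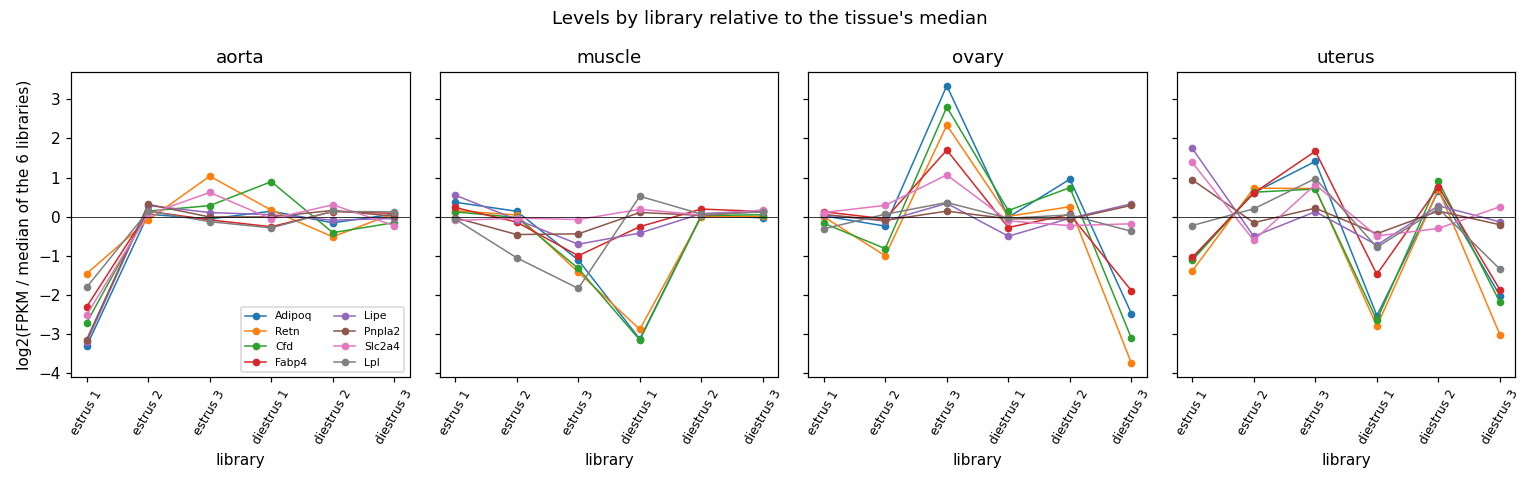
Level of 8 members in each library of aorta, muscle, ovary and uterus, as the log2 ratio to the median of the tissue's 6 libraries. The first estrus library of aorta is the lowest for each gene, Adipoq, Retn and Cfd are lowest in diestrus replicate 1 of muscle and highest in estrus replicate 3 of ovary, and Lpl is highest in that muscle library.

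The ratio of Retn to Adipoq, both per length, was higher in WAT and vein than in aorta and BAT, except that aorta estrus replicate 1 reached into the range of vein. It had a median of 1.58 in WAT (range 1.27 to 2.19), 1.04 in vein (0.826 to 1.36), 0.246 in aorta (0.188 to 0.876) and 0.174 in BAT (0.0623 to 0.483). In muscle it was 1.43 (1.21 to 1.78) and in uterus 1.3 (0.797 to 1.73), inside or near the range of WAT, and in ovary and kidney it was 1.34 (0.917 to 2.26) and 1.38 (1.08 to 3.26). The ratio of Plin1 to Adipoq had medians of 0.241 in WAT, 0.308 in BAT, 0.354 in aorta, 0.307 in vein, 0.289 in muscle, 0.203 in uterus and 0.281 in kidney. In ovary it was 2.58 (0.463 to 15.8), above the median of each of the other 7 tissues.

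As a description over all 90 libraries, which share their tissues, the genes most like each member were found by Pearson's r of log2(FPKM + 1) among 15226 genes. Adipoq was closest to Adig (r = 0.987), Cfd (0.986) and Plin1 (0.983), and Plin1 to Adipoq (0.983), Adig (0.98) and Trarg1 (0.967). Cfd was closest to Adipoq (0.986), Retn (0.978) and Plin1 (0.96), and Retn to Cfd (0.978), Adipoq (0.975) and Plin1 (0.952). Lep stood further off, with Mc2r (0.961), Retn (0.922) and Serpina3c (0.922). Lipe was closest to Trarg1 (0.958), Odf3l1 (0.949) and Adig (0.948), Fabp4 to Pnpla2 (0.969), Cd300lg (0.94) and Ginm1 (0.936), and Pnpla2 to Fabp4 (0.969), Cog4 (0.94) and Hibch (0.937). Lpl was closest to Cd300lg (0.933), Fabp4 (0.921) and Cd36 (0.919), and Slc2a4 to Gys1 (0.934), Art3 (0.924) and Sh3glb1 (0.918).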

How the data were processed

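RNA libraries of 90 tissue samples were sequenced on BGISEQ-500. According to the submitters' notes the authors aligned reads with Bowtie2 2.2.5 to GRCm38.p5 and computed the deposited FPKM values with RSEM 1.2.8. The header does not name the unit, which was taken as FPKM since library sums ran from 353706 to 623534 and differed by tissue. Symbols came from RefSeq GRCm38.p6 (20265 of 20414 genes). Differences were fitted with limma 3.58.1 (trend on) in R 4.3.3 on log2(FPKM + 1), leaving out genes whose libraries averaged under 1 FPKM, and this scale understates changes of low genes. Fold differences are log2 on that scale. The phase fits of WAT, BAT, aorta and vein and the fits between the tissues of a pair were tested on simulated data. The simulation gave the libraries of a comparison the same spread, so it held no library that stood apart. The interaction fits and the phase fits of the other tissues were not tested in this way. The study used a count test at the same limits, which needs counts and was not run. Alternatives were a pseudocount of 0.1, no filter, median-ratio scaling, adjusted p alone, a fit of all 90 libraries, a replicate block and each library left out. The members' medians without single libraries and the pathway counts after scaling were added after seeing the data.

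The members and lists were chosen with earlier results of these data known. Every member was described, pathway genes by counts with the 5 largest calls per pair and the 3 highest in WAT and BAT, and like genes as the 3 with the highest r. Read numbers were approximated from rounding steps of 931 genes. The search was changed 5 times after its output was seen, 6 ways in all, the last with a window set knowing totals given elsewhere, so no way is preferred. Multiples of a read number also give whole values, and 42.6% to 75.9% of low values came out whole within 0.2 reads, where chance gives 40%. No test uses these numbers.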

Additional observations from a re-analysis of the deposited data

Results flagged for a closer look

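Among the 6 libraries of each tissue, both phases together, the highest or lowest was tested against the others by Dixon's ratio at its 95% critical value for the 114 combinations of member and tissue with a mean of at least 1 FPKM. It was passed in 20, where chance passes about 1 in 20, and members of 1 library are not independent. The first estrus library of aorta was low in Adipoq (104 FPKM), Fabp4 (2179), Plin1 (19.8), Lipe (51.2), Pnpla2 (161) and Lpl (292). The third estrus library of ovary was high in Adipoq (20.6 FPKM), Retn (22.6), Cfd (89.5), Fabp4 (84.2) and Slc2a4 (4.43). The first estrus library of stomach was high in Retn (7.04 FPKM) and Cfd (20.9). The first estrus library of uterus was high in Lipe (47.6 FPKM) and Pnpla2 (60.3), and that of duodenum low in Pnpla2 (43.9) and high in Slc2a4 (11.6). In kidney, diestrus replicate 2 was high in Fabp4 (174 FPKM) and estrus replicate 1 in Lpl (288). In hypothalamus, estrus replicate 3 was high in Lipe (6.03 FPKM). No interaction of tissue and phase was called for a member.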

How the results depend on the processing

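Between the phases the count of members called was 0 under the other pseudocount, no filter, median-ratio scaling, adjusted p alone, the replicate block and the fit of all libraries, and 0 to 1 with each library left out, the 1 being Lpl in muscle. Between WAT and BAT, 5 members were called, 8 with adjusted p alone and 4 to 6 with a library left out. Between aorta and vein the count was 1, or 2 with a replicate block, which added Lep (-1.22). Between heart and muscle it was 7, also with each library left out, 9 with adjusted p alone and 5 after scaling. For the interactions it was 0 in each pair, and 0 to 1 in heart with muscle when a library was left out. Over the 3 tissue pairs and the phases of WAT, BAT, aorta and vein there were 973 values of single members under alternatives. Of these 960 kept their side of the limits, 5 lost a call and 8 gained 1. Of the values called in the main fit or under the alternative, 0 changed sign. Uncalled values that changed sign were counted as kept. In aorta, for example, 0 of 10 members were higher in estrus, and 8 of 10 without estrus replicate 1. The cause of the lost and gained calls was not tested. The labels do not say that equal numbers share a mouse, and no tissue or pair had every correlation of same-numbered deviations over 0.1, so equal numbers were not treated as pairs. Between aorta and vein 4 of 6 passed it (0.258 to 0.451) and 9 of 12 libraries were closest to their own number. Between heart and muscle 3 of 6 passed it (0.195 to 0.24) and 8 of 12 were closest to their own number. In WAT and BAT 1 of 6 passed it and 4 of 12 were closest. These values are a hint and do not tie a number to a mouse. The replicate block changed no call but that of Lep. With 1 library of BAT near 74600 reads, low genes there rest on a few reads.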

Other observations

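The genes related to the members by family were described by their levels. Retnla, of the resistin family, was highest in WAT (223 ± 127 FPKM) and at 19 ± 12.6 FPKM in BAT (SD, n = 6). Fabp3, the fatty acid carrier of heart, was at 744 ± 93.4 FPKM in BAT and 658 ± 312 FPKM in aorta, against 2.13 ± 1.53 FPKM in WAT and 93.3 ± 51.3 FPKM in vein (SD, n = 6), and it was highest in heart (4593 ± 346). Plin4 was highest in WAT (398 ± 176 FPKM) and Plin5 in BAT (108 ± 25.2 FPKM). Pnpla3 was highest in WAT (200.2 ± 53.7 FPKM), while Slc2a1, the glucose transporter of the blood-brain barrier, was highest in hypothalamus (51.5 ± 7.58 FPKM) and stood at 6.05 ± 0.709 FPKM in WAT. Lipc was highest in liver (114 ± 10.5 FPKM) and Lipg in ovary (52.5 ± 29 FPKM), the other lipases of the Lpl family. Fabp7 was at 68.3 ± 48.8 FPKM in vein against 1.31 ± 1.39 FPKM in aorta and at most 0.337 FPKM on average in the fat depots. The vein samples also held the neuron markers given above, and the part of other tissue in the Fabp7 level was not tested.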
